A study of Homo sapiens with 8 samples.

Results

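The transcripts of 10 adhesion genes were examined in AB8/13 cells, an immortalized human podocyte line, 8 h after LATS2 induction. The genes were VCAM1, ICAM1, ALCAM, MCAM and L1CAM of the immunoglobulin-like cell adhesion molecules, CD44, and PVR, PVRL1, PVRL2 and PVRL3 of the nectin family. They were chosen by name from the 29004 loci of the deposited gene table and gave 11 rows because PVRL3 had 2. PVRL1, PVRL2 and PVRL3 are the older symbols of NECTIN1, NECTIN2 and NECTIN3.

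All 8 samples came from 1 stable line with a doxycycline-inducible wild-type LATS2 construct delivered by a lentivirus. Doxycycline at 125 ng/mL was given over 8 h to 4 samples (LATS2 OE), and 4 samples were left untreated. Doxycycline was present in every LATS2 OE sample and in no untreated sample, so effects of the drug and of the construct cannot be told apart. The table holds 1 pooled FPKM per group (a read count scaled by transcript length and library size), with no values of single samples. Therefore no SD, no test across samples and no depth per sample could be given, and whether a difference exceeds the spread between replicates is unknown for every value below.

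Immunoglobulin-like adhesion molecules are membrane proteins whose extracellular immunoglobulin domains bind integrins, or other immunoglobulin-like molecules on the neighboring cell. VCAM1 and ICAM1 are the ligands by which leukocyte integrins hold on to activated cells, and both genes are known targets of NF-kB. Nectins form the cell-cell contacts that afadin links to the actin cytoskeleton at adherens junctions. CD44 is the main cell surface receptor for hyaluronan. In podocytes, the slit diaphragm is itself built from immunoglobulin-like molecules such as nephrin.

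The promoters of VCAM1, ICAM1 and PVR are shown because VCAM1 and ICAM1 are the classical NF-kB targets of the group and PVR had the lowest ratio. Each is the 250 bases before the transcription start, 5′ to 3′ on the strand of the gene, from RefSeq (GRCh38.p14). VCAM1 lies at chr1:100719492-100719741 on the plus strand, ICAM1 at chr19:10270870-10271119 and PVR at chr19:44643660-44643909, both also on the plus strand. Capitals mark matches to 4 letter patterns searched on both strands, namely GGGNNNNNCC and GGANNTTCC for NF-kB, GGAATG for TEAD and TGANTCA for AP-1. Overlapping matches run together in the capitals.
VCAM1: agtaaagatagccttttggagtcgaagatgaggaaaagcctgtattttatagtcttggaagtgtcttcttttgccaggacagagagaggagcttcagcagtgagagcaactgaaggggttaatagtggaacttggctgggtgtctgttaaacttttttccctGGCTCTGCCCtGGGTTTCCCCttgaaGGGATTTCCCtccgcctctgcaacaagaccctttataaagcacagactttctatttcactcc
ICAM1: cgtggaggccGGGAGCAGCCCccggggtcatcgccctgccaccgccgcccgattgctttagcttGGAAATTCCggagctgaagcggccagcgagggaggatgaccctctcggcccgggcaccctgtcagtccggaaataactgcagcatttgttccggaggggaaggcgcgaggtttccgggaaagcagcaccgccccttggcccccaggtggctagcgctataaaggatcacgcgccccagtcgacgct
PVR: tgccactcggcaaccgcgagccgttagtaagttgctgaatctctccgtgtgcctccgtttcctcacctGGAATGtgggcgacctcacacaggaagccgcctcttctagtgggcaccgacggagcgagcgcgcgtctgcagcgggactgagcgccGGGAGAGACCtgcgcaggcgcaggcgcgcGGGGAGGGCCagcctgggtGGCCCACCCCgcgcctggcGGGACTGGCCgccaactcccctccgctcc

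In VCAM1, GGGNNNNNCC matched 3 times, beginning 88, 77 and 62 bases before the start. In ICAM1 this pattern matched 2 times in overlap, 240 and 239 bases before the start, and the shorter form GGANNTTCC matched once, 186 bases before the start. PVR held 4 matches to GGGNNNNNCC and, 182 bases before the start, a match to GGAATG. GGGNNNNNCC is a loose pattern that 54.4% of 35116 RefSeq promoters of this length contained, so its presence separates few genes. The other patterns were rarer, with GGANNTTCC in 3.84%, GGAATG in 11.9% and TGANTCA in 6.57% of them. PVRL1 had no promoter in the RefSeq table and was not searched. Among the other 9 of the 10 genes, GGANNTTCC was found in ICAM1 and GGAATG in PVR, and TGANTCA in none. These letters are descriptions of the windows and do not show that a factor binds there.

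In most table cells of at least 1 FPKM the decimal point had been lost, so that a value with 6 digits may be the printed one, or that divided by 10 or by 100. The ratio of the groups was taken from the power of 10 that brings both values nearest to each other, which is right for any ratio below 3.16-fold (the square root of 10) and wrong for a larger one. Every direction and ratio below rests on that reading, since with the next nearest power of 10 all 11 rows of the adhesion genes would change direction. With that ratio, CD44 had a single possible level, ICAM1 and PVRL2 had 2, and the other 8 rows had 3. All 11 rows had at least 1 FPKM in both groups under every reading, as did 12218 loci of the table, the reference set used below.

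By the nearest ratio, VCAM1 and PVRL1 were more than 1.5-fold higher in LATS2 OE than in untreated cells, and none was 1.5-fold lower. PVR had the largest shift downward, and the other 8 rows lay within 0.32 of 0 on the log2 scale. Among all 12218 loci, 1.36% were at least 1.5-fold higher and 1.79% at least 1.5-fold lower, against 2 and 0 of the 11 rows. These shares also use the nearest ratio, so a locus whose true ratio is past 3.16-fold can enter them in the wrong direction. With so few rows the counts describe these genes and support no statement on the group. The median log2 ratio of the 11 rows was -0.07, and that of all 12218 loci was -0.0041. Without regard to direction, the median shift was 0.15 on the log2 scale for the 11 rows and 0.07 for all loci.

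**Figure D1:**
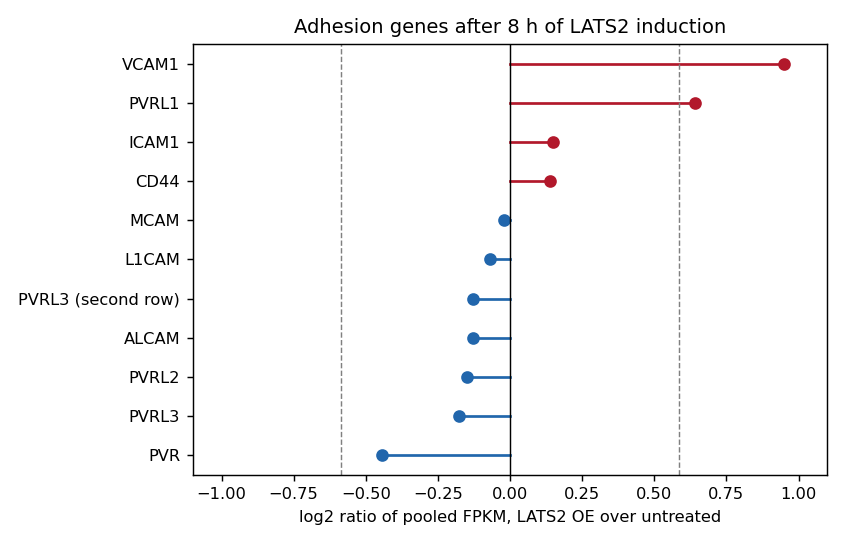
Log2 ratio of pooled FPKM (LATS2 OE over untreated) for the 11 rows of the 10 adhesion genes, red where higher and blue where lower in LATS2 OE, with dashed lines at 1.5-fold. VCAM1 at 0.95 and PVRL1 at 0.64 lie beyond the upper line, PVR at -0.45 is the lowest, and no error bars are drawn because the table holds 1 value per group.

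VCAM1, the ligand of the integrin encoded by ITGA4 and ITGB1, had the largest ratio of the group. Its listed values were 230 in untreated and 443 in LATS2 OE cells, that is 2.30 and 4.43 FPKM or both 10 or 100 times higher. This was 1.93-fold higher in LATS2 OE, a log2 ratio of 0.95. Of the 12218 loci, 50 (0.409%) had a nearest ratio as high or higher. Among these are CTGF, ANKRD1 and AMOTL2, which the paper reports as lowered, so this rank holds only for the nearest ratios. The next reading that the digits of VCAM1 allow is 0.193 times the untreated value, a change of over 5-fold downward. The digits alone do not settle between them.

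ICAM1, the ligand of the leukocyte integrin LFA-1, shares cytokine inducibility with VCAM1 but differed little between the groups. It stood at 2.27 FPKM in untreated and 2.52 FPKM in LATS2 OE cells, or at 22.7 and 25.2 FPKM. The ratio was 1.11-fold (log2 0.15), and 13.3% of all loci were as high or higher. The ratio of VCAM1 was 1.74 times that of ICAM1. In bulk samples, a change in how many cells hold VCAM1 transcripts and one in the RNA per cell cannot be told apart.

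ALCAM, MCAM and L1CAM, which support contacts between like cells or with neighboring cell types, were close to their untreated values. ALCAM (CD166) was listed at 787 and 720, a ratio of 0.914 (log2 -0.13). MCAM (CD146) was listed at 173 and 170, a ratio of 0.985 (log2 -0.02), the smallest shift of the 11 rows. L1CAM was listed at 203 and 194, a ratio of 0.953 (log2 -0.07). All 3 had 3 possible levels, the lowest of them 7.87 FPKM for ALCAM, 1.73 FPKM for MCAM and 2.03 FPKM for L1CAM in untreated cells.

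CD44 was at 113 FPKM in untreated cells, a value printed as written. In LATS2 OE cells it was at 124 FPKM, which is 10.2% higher (log2 0.14), and 1716 of the 12218 loci were as high or higher. With the nearest ratio of each gene, CD44 was above ICAM1 and PVRL2 on the FPKM scale, since these reached at most 25.2 and 46.0 FPKM. The order of the remaining genes by level cannot be given.

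**Figure D2:**
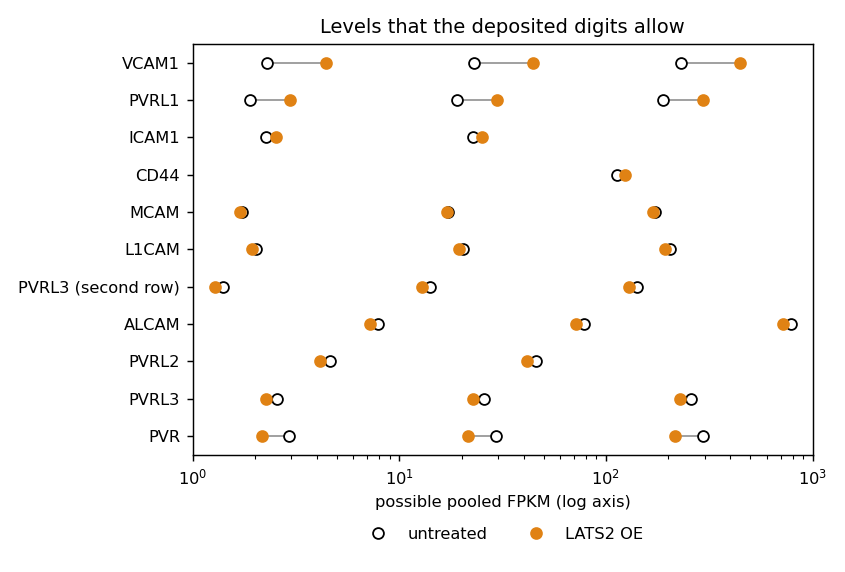
Pooled FPKM levels that the deposited digits allow for each of the 11 rows, on a log axis, with open points for untreated and filled points for LATS2 OE cells. CD44 has a single pair near 113 and 124 FPKM, ICAM1 and PVRL2 have 2 pairs each, and the other rows have 3 pairs.

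The nectin family held ratios on both sides of 1. PVRL1 (nectin-1), a homophilic and heterophilic adhesion molecule of adherens junctions, was listed at 190 in untreated and 295 in LATS2 OE cells. Its ratio was 1.56-fold (log2 0.64), which 1.19% of all loci reached or exceeded. The next reading of its digits would be 0.156 times the untreated value. With 1 FPKM added to both values at the lowest possible level, the log2 ratio was 0.45 and no longer past 1.5-fold, which is 0.58 on this scale.

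PVR (CD155, nectin-like molecule 5), a receptor that promotes cell movement and binds CD226 and TIGIT on lymphocytes, lay on the other side. It was listed at 293 in untreated and 216 in LATS2 OE cells, a ratio of 0.734 (log2 -0.45). Of the 12218 loci, 366 were as low or lower. The ratio of PVRL1 was 2.12 times that of PVR, the widest gap within the nectin family.

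PVRL2 (nectin-2, CD112), which like PVR binds CD226, was at 4.60 and 4.15 FPKM or at 46.0 and 41.5 FPKM, a ratio of 0.901 (log2 -0.15). PVRL3 (nectin-3), a preferred partner of nectin-1 in trans, was listed in 2 rows of identical coordinates. The first gave 257 and 227, a ratio of 0.885 (log2 -0.18), and the second 141 and 129, a ratio of 0.915 (log2 -0.13). How reads were divided between both rows is not shown by the table. Of the 5 nectin family rows 4 were lower in LATS2 OE, but 2 of these carry the same gene name, PVRL3. Whether both rows measure PVRL3 is not shown. Of the 12218 loci 48.5% were higher, and so few rows support no statement on the family.

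**Figure D3:**
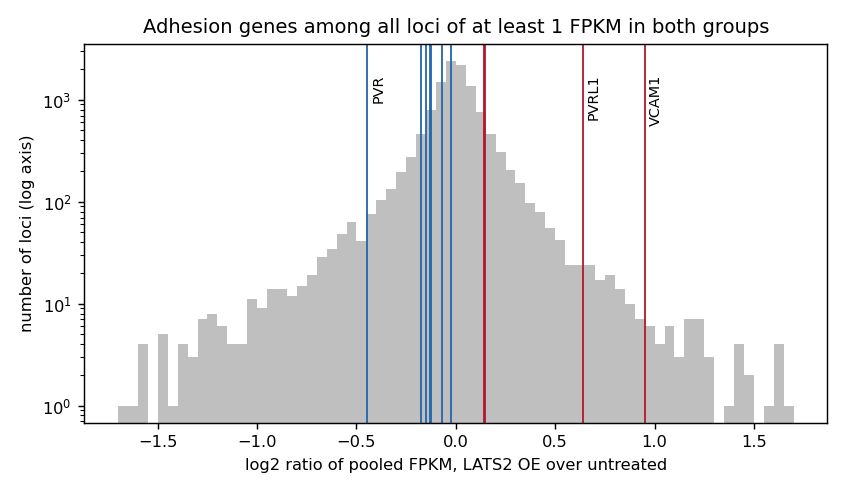
Log2 ratio of pooled FPKM (LATS2 OE over untreated) of the 12218 loci at or above 1 FPKM as a gray histogram with a log count axis, with vertical lines for the 11 rows of the adhesion genes. VCAM1 at 0.95 and PVRL1 at 0.64 stand in the thin upper tail, and 8 rows fall among the 90.6% of loci within 0.32 of 0.

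The 10 genes lie on 5 chromosomes of hg19, and each is annotated as protein-coding. VCAM1 spans 101185196 to 101204601 on chromosome 1, PVRL1 119508808 to 119600140 on chromosome 11 and PVR 45147098 to 45169428 on chromosome 19. PVR and PVRL2 are separated by 179964 bp and MCAM and PVRL1 by 320967 bp. These neighbors differed, with ratios of 0.734 and 0.901 for the first pair and of 0.985 and 1.56 for the second. Within 500000 bp of VCAM1 there were 9 other loci of this set. Among them S1PR1, a receptor for sphingosine 1-phosphate, was past 1.5-fold, and its nearest readings are a 3.05-fold higher and a 3.28-fold lower value. None of the 5 such loci near PVRL1 was past 1.5-fold. Near PVRL3 both such loci were lower, 1 of them past 1.5-fold at a log2 ratio of -1.35. Near CD44 1 of 4 loci was past 1.5-fold, on the lower side. The windows of PVR and PVRL2 overlap, and 1 locus of each was past 1.5-fold, in both at the same log2 ratio of 1.62. That nearest ratio is about as high as the 1.61 of S1PR1, so its direction is no better fixed. Among all 12218 loci 1.36% were past 1.5-fold upward and 1.79% downward, and the window counts are descriptions. The window of MCAM held 1 higher locus, at the 0.64 of PVRL1 itself, and 1 lower at -0.68, and those of ICAM1, ALCAM and L1CAM held none past 1.5-fold.

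Libraries were made with a kit that does not mark strand, so reads of overlapping antisense transcripts count toward a gene. In the GENCODE annotation of GRCh37, which is the assembly of hg19, VCAM1 and ALCAM overlapped no gene on the opposite strand. PVRL1 overlapped 3, NECTIN1-AS1 among them, ICAM1 and CD44 overlapped 2 each, and the remaining genes 1 each. The overlap of MCAM was with CBL, a protein-coding gene. On the same strand PVR overlapped 2 genes, the protein-coding CEACAM19 among them, and L1CAM and CD44 overlapped 1 each. The part of these transcripts in the values was not tested.

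The check of the induction was limited by the same loss of decimal points. LATS2 was listed at 264 and 531, which allows ratios of 2.01, 20.1 and 201 but also of 0.201 and 0.0201. Of the YAP targets, CYR61 was lower under every reading, with an untreated level of 1181 FPKM and at most 0.391 times that in LATS2 OE. For CTGF, ANKRD1 and AMOTL2 the nearest ratios were 1.98, 2.25 and 3.06, and the next 0.198, 0.225 and 0.306, so the values alone allow both directions. The paper reports LATS2 as the most increased transcript and places CTGF, ANKRD1 and AMOTL2 among the most lowered ones. For CTGF, ANKRD1 and AMOTL2 the nearest ratio therefore gave the wrong direction. The nearest ratio of VCAM1, at 1.93, is close to the nearest ratio of CTGF, and the direction of VCAM1 is no better fixed by the digits. Of all loci, 102 had a nearest ratio of at least 2-fold, but a lower nearest ratio does not exclude the other readings.

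Genes known to be induced together with VCAM1 and ICAM1 by NF-kB or interferon were compared by the nearest ratio. Of 14 listed genes 12 belonged to the set above 1 FPKM, of which 11 were higher and 1 lower, with 2 at least 1.5-fold higher and 1 at least 1.5-fold lower. Among all 12218 loci 48.5% were higher, and 1.36% and 1.79% were past 1.5-fold upward and downward. These 12 genes had a median log2 ratio of 0.34, against -0.0041 over all loci, and no test was possible. TRAF1, an adaptor of TNF receptors, was 2.04-fold higher, and CX3CL1, the membrane-bound chemokine fractalkine, 1.77-fold. CXCL8, which encodes interleukin-8, was the exception at 0.665 times the untreated value. SELE, the endothelial E-selectin, was listed at 0 in both groups. Some of the 11 higher genes were nearly unchanged, such as NFKB2 at 1.01-fold and TNFAIP3 at 1.02-fold. As for VCAM1, the digits of all 12 genes also allow the opposite direction, a lower reading for TRAF1 and CX3CL1 and a higher one for CXCL8.

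Hyaluronan genes, which make and degrade the ligand of CD44, lay on both sides. HAS3 was 1.81-fold higher (log2 0.86) and HAS2 was at 0.631 times the untreated value (log2 -0.67). Both encode hyaluronan synthases. TMEM2, a cell surface hyaluronidase, had a ratio of 0.724. Of 16 listed genes 9 were above 1 FPKM in both groups, with a median log2 ratio of -0.04.

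Of the partners and anchors of the 10 genes, 0 of 13 were past 1.5-fold, with a median log2 ratio of 0.02. Among all 12218 loci only 1.36% and 1.79% were past 1.5-fold upward and downward, so this count does not set the partners apart. EZR (ezrin), which ties CD44 and ICAM1 to actin, had the largest shift at 0.785 times the untreated value. ITGB2, the shared chain of the ICAM1 receptors, had a ratio of 0.874, and LGALS1 (galectin-1), an abundant transcript at 2660 and 2990 FPKM, one of 1.12-fold. The integrin genes of the VCAM1 receptor, ITGA4 and ITGB1, had ratios of 1.00-fold and 1.01-fold, and MLLT4 (afadin), the anchor of the nectins, 1.03-fold. The leukocyte-side receptors CD226 and CD96 lay below 1 FPKM in both groups. Of 8 shedding proteases of at least 1 FPKM, 1 was past the fold, ADAM8 at 1.55-fold, beside the same shares of all loci. A single gene supports no statement on these proteases. ADAM10 and ADAM17, the sheddases of many adhesion molecules, had ratios of 0.844 and 0.995, and the gelatinase MMP2 one of 1.19-fold.

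Other immunoglobulin-like adhesion molecules above 1 FPKM in both groups had smaller shifts than VCAM1, PVRL1 and PVR. Of 38 rows of this list 16 were at that level, and 0 of these were past 1.5-fold. Over all 12218 loci 1.36% were past it upward and 1.79% downward, so a count of 0 among 16 does not set this list apart. Their log2 ratios ran from -0.17 for CADM1 to 0.29 for CD58, with a median of -0.0072. Below that level some ratios were larger, such as 1.57 on the log2 scale for PECAM1 and -1.51 for ICAM4. Both genes were near 0, PECAM1 at 0.00119 and 0.00352 FPKM and ICAM4 at 0.0289 and 0.0102 FPKM. CNTN1 had at least 1 FPKM in untreated cells only and was at 0.755 FPKM in LATS2 OE cells. Its nearest ratio was 0.596 (log2 -0.75), and its other readings are lower still. JAM2, a tight junction molecule that binds leukocyte integrins, had a ratio of 1.13-fold. The lists were written with earlier results of these data known, and the counts are descriptions.

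**Figure D4:**
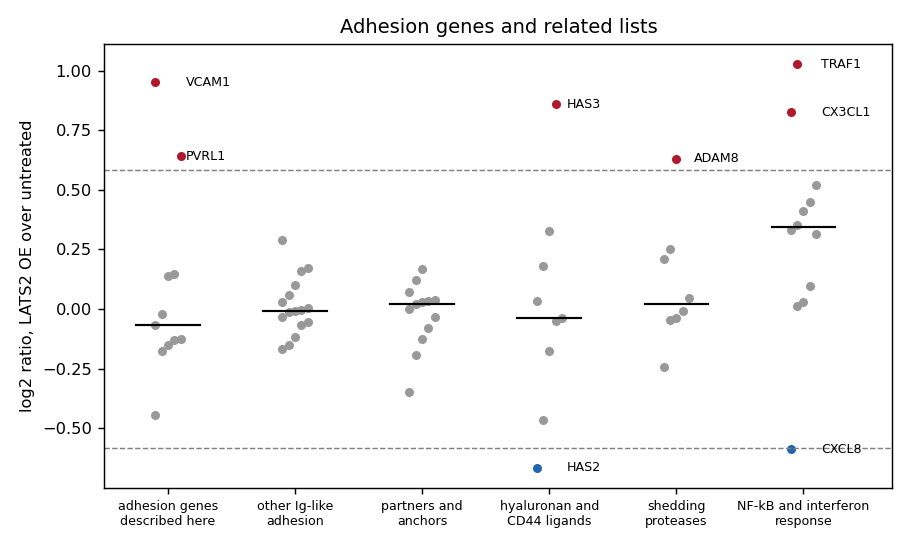
Log2 ratio of pooled FPKM (LATS2 OE over untreated) of the 11 rows of the adhesion genes and of 5 related gene lists, each point a locus above 1 FPKM in each group, with black lines at the medians and dashed lines at 1.5-fold. Red and blue points are past 1.5-fold and named, and the NF-kB and interferon list has the highest median at 0.34.

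Markers of endothelial, leukocyte and tubular cells were low. Of 6 endothelial markers 5 lay below 1 FPKM in both groups, and 1 was near 0 in untreated and listed at 0 in LATS2 OE cells. PECAM1 was at 0.00119 FPKM in untreated and 0.00352 FPKM in LATS2 OE cells. All 6 leukocyte markers lay below 1 FPKM, with PTPRC at 0.00234 and 0.00360 FPKM. Of 6 tubular markers 4 were below 1 FPKM in both groups, and 2 were listed at 0, 1 of them in LATS2 OE cells only. Of 11 podocyte markers 6 were above 1 FPKM in both groups, SYNPO, PODXL and CD2AP among them. The defining gene NPHS1, which encodes nephrin, was nearly absent at 0.00875 and 0.00616 FPKM. WT1 was at 0.413 and 0.412 FPKM. Of 5 mesangial and stromal markers 2 were below 1 FPKM in both groups and 1 was listed at 0. The other 2, PDGFRB and ACTA2, had at least 1 FPKM, with ratios of 0.878 and 1.16-fold, and their part in the results was not tested.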

How the data were processed

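RNA of 4 LATS2 OE and 4 untreated samples was sequenced after poly(A) selection. The kit does not mark strand, and whether samples came from separate cultures is not stated. Per the submitters' processing notes, Trimmomatic (0.33), TopHat, Cufflinks and hg19 were used on single-end data. The authors deposited gene-level FPKM values, pooled to 1 value per group. Other tool versions, the annotation and the depth of each sample are not given in the material read here. The table also holds the authors' log2 fold change, test statistic, p-value and q-value, which were not used. Samples were grouped by their titles, and no column of single samples was used.

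In table cells of at least 1 with 4 or more decimals the point had been lost. Table cells under 1, or with fewer than 3 decimals, were taken as written. The power of 10 giving the ratio nearest to 1 was computed in Python (3.11.15). Among loci whose values are as written, 365 of 8080 (4.52%) with both groups under 1 FPKM exceeded 3.16-fold, 24 of 4204 (0.571%) from 0.1 to under 1 FPKM, and 0 of 81 at or above 1000 FPKM. Both values had to lie in the stated range, so loci that a large change carried out of it are missing. These shares can therefore be too low and do not give an error rate of the nearest ratio. The share at the levels between is not known.

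A test across samples was not possible. Loci with both groups at 1 FPKM or more were counted past 1.5-fold, without a pseudocount. Locus starts were raised by 1 to count from 1. Of each related list, up to 3 genes with the largest absolute log2 ratio were named. ITGA4, ITGB1, MLLT4, CD226, CD96, ADAM17, S1PR1, SELE, NFKB2, TNFAIP3, ICAM4, CNTN1 and the genes under other observations were named after their values were seen. The members and lists were chosen with earlier results of these data known. 2 list genes were found through RefSeq synonyms. Alternatives were other folds, centring, pseudocounts, no filter and the next power of 10. The values of 1 marker gene are not reported here.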

Additional observations from a re-analysis of the deposited data

How the results depend on the processing

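The power of 10 was the choice that mattered most. With the next nearest power, 0 of the 11 rows kept its direction, and VCAM1 would have a log2 ratio of -2.37 and PVRL1 one of -2.68. Centring on the median of all loci and a pseudocount of 0.1 FPKM moved every one of the 11 log2 ratios by less than 0.1, and a pseudocount of 1 FPKM at the lowest level kept every direction and shrank VCAM1 to 0.72, PVRL1 to 0.45 and PVR to -0.32. At that value PVRL1 is no longer past 1.5-fold, which leaves VCAM1 past it.

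With a lower threshold of 0.32 on the log2 scale 3 of the 11 rows of the adhesion genes were past it, and with 2-fold 0. Of all 12218 loci, 385 were past 1.5-fold in either direction, 1149 past the lower threshold and 102 (0.835%) past 2-fold. Within the lower threshold lay 90.6% of all loci. Without the filter on 1 FPKM 2541 named loci were past 1.5-fold. In the related lists, the lower threshold gave 1 of 13 partners and anchors, 4 of 9 hyaluronan genes and 8 of 12 NF-kB and interferon genes. The 2-fold threshold gave 0 of 9 hyaluronan genes, 0 of 8 shedding proteases and 1 of 12 NF-kB and interferon genes. No paired analysis was possible because the table holds 1 pooled value per group, and for the same reason no sample could be left out.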

Other observations

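Several immunoglobulin-like molecules outside the 10 genes lay below 1 FPKM, where the deposited values are as written. PVRL4 (nectin-4) was at 0.117 FPKM in untreated and 0.168 FPKM in LATS2 OE cells, and PVRL3-AS1, a transcript antisense to PVRL3 with a row of its own, was at 0.172 and 0.0846 FPKM. ICAM2 was at 0.943 and 0.885 FPKM and ICAM5 at 0.347 and 0.498 FPKM. The nephrin relatives of the slit diaphragm differed in level, with KIRREL above 1 FPKM at a ratio of 0.902 and KIRREL2 at 0.00187 and 0.00425 FPKM. The table gives no error for these values.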
